A study of Rattus norvegicus with 18 samples.

Results

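Left lungs of rats whose left hilum had been clamped for 2 h and then reopened for 30 min were compared with normal control lungs on Affymetrix rat arrays, which read messenger RNA as a brightness value, the signal, for each probe set. All 3 arrays of left lungs at 30 min and all 6 control arrays were used, 9 of the 18 arrays of the series, with every probe set but the manufacturer's control sets. After a filter on low signals 10533 probe sets remained, and they stood for 7728 named genes. The rats were male Sprague-Dawley, an outbred strain, with no age given. The left 30 min animals had been anaesthetised, ventilated through a tracheotomy and opened by a left thoracotomy, and the left lung stayed warm and in place while its hilum, with the airway and vessels, was clamped for 2 h, before 30 min of ventilation and reperfusion. The right 30 min group (n = 3) was the unclamped right lung of this operation, and the left 3 h group (n = 3) was clamped for the same 2 h and reperfused for 3 h. The control lungs (n = 6) came from rats whose lungs were retrieved directly after anaesthesia and sacrifice, with no operation described and no side named. Clamping, reopening, surgery, ventilation and the hours under anaesthesia therefore cannot be told apart in left 30 min against control. The labels do not say whether each array is a separate rat, so p-values measure the spread between these arrays. No lung was sampled at the end of the clamp without reperfusion, as far as the labels go, and no sham-operated lung was used here.

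Warm ischaemia stops the supply of oxygen, blood-borne fuel and flow to the lung, and reopening restores all of them together with circulating leukocytes. Cells that are stretched, depleted of energy or exposed to cytokines and oxidants first switch on immediate early genes, whose promoters are ready before the stimulus: serum response factor and CREB drive FOS and EGR genes, NF-kB drives chemokines and its own inhibitor, and the metal sensor MTF-1 drives metallothioneins. The proteins made from them, mainly AP-1 dimers of FOS and JUN members, then act on a later wave of genes. Against these stand transcripts that are short-lived or that need steady flow or growth factor input, such as the flow-dependent endothelial factor KLF2 and the ID proteins of the BMP pathway, whose level shows when such input is lost.

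Measures of RNA quality and of cell type markers differed between the groups in these arrays, though none of the 17 compared passed after adjustment (lowest adjusted p = 0.0675). With 3 against 6 arrays the exact permutation test cannot go below p = 0.0238, so adjustment left little room for any to pass. The 3' to 5' signal ratio of beta-actin, which rises as RNA breaks, was 4.81, 1.53 and 2.30 in left 30 min lungs, against 1.31 to 1.54 in controls, and only left 30 min replicate 2 lay inside the control range (exact permutation test, two-sided, p = 0.0476, 0.0899 after Benjamini-Hochberg adjustment over 17 array measures). The same ratio for GAPDH was 1.92, 1.36 and 1.68 in left 30 min lungs, against 1.08 to 1.33 in controls, with no overlap (exact permutation test, p = 0.0238, the smallest this design allows, adjusted 0.0675). The median signal of an array was 255, 252 and 265 in left 30 min lungs, against 262 to 284 in controls. The part of RNA quality in the results was not tested beyond the fits that leave out an array or carry the actin ratio as a covariate. Of 9 tested neutrophil markers, 4 rose and 1 fell, and their summed signal was 7758, 19309 and 7589.7 in left 30 min lungs, against 2994 to 4889 in controls. Replicate 2 of the left 30 min lungs stood far above the other two in that sum. The mean log2 level of the list differed by 0.939 (0.524 without replicate 2). Alveolar genes were strongly expressed in both groups: the surfactant gene Sftpc read 14042, 10573 and 12260 in left 30 min lungs, against 12483 to 15030 (median 13764) in controls, so the tissue fits its label as lung.

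In left 30 min against control, 668 genes rose (8.64% of the 7728 tested) and 736 fell (9.52%) at an adjusted p under 0.05 in limma's moderated test over all probe sets. The median gene differed by -0.06 on the log2 scale, where every difference given here is left 30 min minus control of mean log2(signal + 25), with its standard error. A rise or fall by a number below is such a log2 difference. Every left 30 min array lay above every control for 925 genes (12.0%) and below every control for 1119 genes (14.5%). When each of the 9 arrays was left out in turn, 339 rises (4.39%) and 253 falls (3.27%) kept their call in every fit. Without left 30 min replicate 1, the array with the highest actin ratio, 463 genes rose (5.99%) and 416 fell (5.38%). Without all arrays of actin ratio above 2, which leaves replicate 2 as the only left 30 min array, 233 rose and 200 fell. Rises made up 47.6% of the calls, against 66.4% with each array centred on its median and 51.7% after quantile normalization, so the balance of rises and falls rests on the scaling. The added 25 signal units understate the change of genes with low signals. Unless said otherwise, the genes named below kept their call without each array in turn. The 30 largest rises and 30 largest falls were also picked for no overlap with the controls, so their lack of overlap is not a finding.

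AP-1 members and their partners were mostly raised. Of 11 tested members, 8 rose and none fell, with a median log2 difference of 0.85. Fosl1, a FOS-related AP-1 subunit, read 319, 1236 and 663 in left 30 min lungs, against 99.6 to 173 (median 147) in controls. Fosl1 rose by 1.99 ± 0.38 (adjusted p = 0.0017). Its 3 left values spread widely yet all lay above the controls. Junb, the AP-1 partner that restrains JUN, read 2223, 2778 and 1819.5 in left 30 min lungs, against 586 to 1056 (median 740.1) in controls. Junb rose by 1.53 ± 0.31 (adjusted p = 0.0027). Jun itself read 4059, 4111 and 3574 in left 30 min lungs, against 1804 to 3132 (median 2166) in controls (log2 difference 0.76 ± 0.19, adjusted p = 0.0091), with other probe sets at 1.09 (adjusted p = 4.1e-05) and 0.63 (adjusted p = 0.11). The small MAF proteins, which pair with AP-1 and NRF2 type factors, rose too: Mafg (0.64 ± 0.12) and Mafk (0.68 ± 0.13). Fos read 4518, 4110.4 and 3649 in left 30 min lungs, against 166 to 2027 (median 424) in controls. Fos rose by 2.96 ± 0.76 (adjusted p = 0.011). The control lungs did not share 1 level: replicates 3 and 4 had Fos signals of 2027 and 2003, and the other 4 lay between 166 and 674. These 2 control arrays also had the highest summed cardiac muscle signal of the controls (7722 and 8033), and its part in the spread was not tested. Fosb (log2 difference 3.58 ± 0.93, adjusted p = 0.012) and the stress factor Atf3 (log2 difference 2.33 ± 0.61, adjusted p = 0.013) lost their calls without left 30 min replicate 1 (adjusted p = 0.064 and 0.062). Fosl2 read 128, 175 and 149 in left 30 min lungs, against 58.9 to 128 (median 93.5) in controls, above the controls by a narrow margin, and missed the threshold (adjusted p = 0.071).

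The wider list of EGR, KLF, IER, MYC and ID factors was split, with 8 of 27 members higher and 8 of 27 lower. Among the risers, Egr1, a zinc finger factor induced within minutes of stretch or injury, had signals of 9358, 8253 and 7698 in left 30 min lungs, against 613 to 4335 (median 1032) in controls. Egr1 rose by 2.55 ± 0.63 (adjusted p = 0.0091). As with Fos, control replicates 3 and 4 stood apart from the other controls, at 4335 and 4168. Egr2 read 752, 976 and 602 in left 30 min lungs, against 157 to 397 (median 195) in controls. Egr2 rose by 1.61 ± 0.33 (adjusted p = 0.0025). Myc, which drives growth and ribosome production, read 702, 1487 and 835 in left 30 min lungs, against 201 to 271 (median 241) in controls. Myc rose by 1.89 ± 0.29 (adjusted p = 0.00028), and left 30 min replicate 2 was the highest of the 9 arrays. Ier3, an NF-kB target that limits cell death, differed by 1.57 ± 0.32, and Klf6 by 0.84 ± 0.16. Klf9, a factor induced by glucocorticoids, rose on the probe set of highest signal (4547, 4206 and 4574 in left 30 min lungs, against 1439 to 2035 (median 1899) in controls; log2 difference 1.26 ± 0.12, adjusted p = 4.7e-06), and another probe set differed by 1.0 (adjusted p = 0.074). Ier2 (log2 difference 1.18 ± 0.31, adjusted p = 0.014) lost its call without left 30 min replicate 1 or 2 (adjusted p = 0.077 and 0.055). The NR4A orphan receptors did not pass: Nr4a1 read 3391, 2839 and 2120.3 in left 30 min lungs, against 554 to 3301 (median 718) in controls (log2 difference 1.30 ± 0.62, adjusted p = 0.15), with a control range that reached into the left values.

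The fallers of this list included 3 ID proteins and Klf2. Id3, an inhibitor of basic helix-loop-helix factors and a direct BMP target, read 876, 1117 and 667 in left 30 min lungs, against 1992 to 2949 (median 2324) in controls. Id3 fell by 1.40 ± 0.19 (adjusted p = 9.9e-05). Id4 read 40.8, 49.9 and 62.8 in left 30 min lungs, against 102 to 194 (median 177) in controls. Id4 fell by 1.26 ± 0.28 (adjusted p = 0.005), and the left lungs did not overlap the controls. Klf2, the endothelial factor kept up by laminar flow, read 2503, 1972 and 2202 in left 30 min lungs, against 3459 to 5912 (median 4288) in controls. Klf2 fell by 1.0 ± 0.20 (adjusted p = 0.0024). All its other tested probe sets were lower too, and the largest of these differences was -1.83 (adjusted p = 0.00041). Klf10, a TGF-beta induced factor, differed by -0.72 ± 0.15, and Snai1, a repressor of E-cadherin, by -0.61 ± 0.11. Cdh1, which encodes E-cadherin, rose, at 2939, 3223 and 3137 in left 30 min lungs, against 1555 to 2089.5 (median 1723) in controls. Cdh1 rose by 0.82 ± 0.20 (adjusted p = 0.0088).

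**Figure D1:**
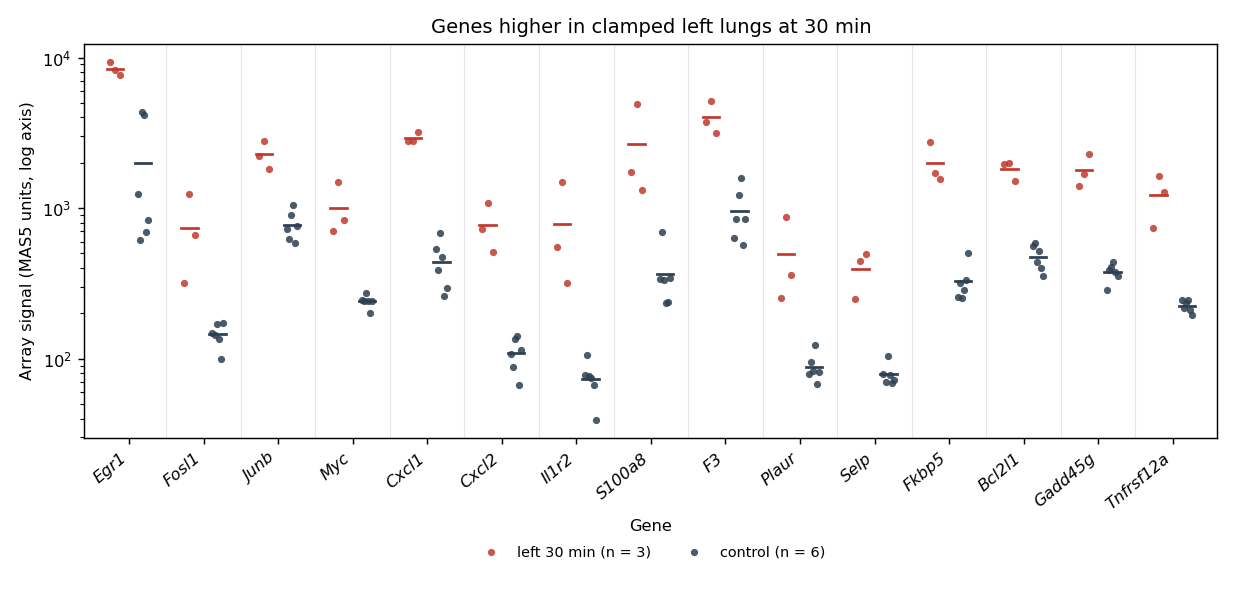
Array signals on a log axis for 15 genes that rose in clamped left lungs at 30 min: each point is an array, left 30 min (n = 3) beside control (n = 6), and each line the mean of its group. The left 30 min points lie above every control point for all 15 genes, and left 30 min replicate 2 is the highest of its group for S100a8, at 4938. The largest of these rises were picked for lack of overlap.

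Genes that switch growth factor signalling off rose with them. Of 20 feedback regulators of MAP kinase signalling and mRNA decay, 12 rose and none fell (median 0.66), though without left 30 min replicate 2 only 7 were called. Errfi1, a cytoplasmic inhibitor of the EGF receptor, read 5358, 5050.3 and 4478 in left 30 min lungs, against 933 to 1635 (median 1234) in controls. Errfi1 rose by 2.0 ± 0.21 (adjusted p = 1.1e-05). Its left values lay close together and far above the controls. Zfp36, whose protein tristetraprolin marks cytokine mRNA for decay, read 5008, 5791 and 4795 in left 30 min lungs, against 1142 to 2831 (median 2074) in controls. Zfp36 rose by 1.37 ± 0.34 (adjusted p = 0.0084). Rgs2, which ends signals of Gq-coupled receptors, differed by 1.50 ± 0.33, the kinase gene Plk2 by 0.89 ± 0.16, and the receptor tyrosine kinase antagonist Spry1 by 0.63 ± 0.14. The dual-specificity phosphatases, which dephosphorylate MAP kinases, were uneven. Dusp9 read 332, 259 and 338 in left 30 min lungs, against 55.6 to 185 (median 105) in controls (log2 difference 1.34 ± 0.30, adjusted p = 0.0046), and Dusp5 differed by 1.12 ± 0.28 but lost its call without left 30 min replicate 2 (adjusted p = 0.077). Dusp1 (log2 difference 0.83 ± 0.25, adjusted p = 0.025) lost its call without any of the 3 left arrays, and another probe set of it differed by 0.26 (adjusted p = 0.76). Dusp6 and Dusp2 differed by -0.03 and 0.11 (adjusted p = 0.95 and 0.71). Other probe sets of Dusp6 differed by 0.97 (adjusted p = 0.016) and -0.29 (adjusted p = 0.67).

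In the EGF family 2 ligands rose and their receptor fell. Areg, which encodes amphiregulin, read 1198, 2030 and 1738 in left 30 min lungs, against 18.2 to 173 (median 83.4) in controls. Areg rose by 4.04 ± 0.45 (adjusted p = 1.5e-05). Hbegf, the heparin-binding ligand, read 245, 868 and 614 in left 30 min lungs, against 136 to 218 (median 178) in controls. Hbegf rose by 1.45 ± 0.36 (adjusted p = 0.0084), and lost its call without left 30 min replicate 2 (adjusted p = 0.069). Egfr, the receptor of both, fell, with signals of 58.7, 104 and 96.2 in left 30 min lungs, against 198 to 319 (median 250.2) in controls. Egfr fell by 1.33 ± 0.20 (adjusted p = 0.00022). Ereg (log2 difference 0.20 ± 0.18, adjusted p = 0.44), Erbb2 (log2 difference -0.43 ± 0.22, adjusted p = 0.17) and the sheddase Adam17 (log2 difference 0.10 ± 0.15, adjusted p = 0.69) did not pass. In all, 2 of 9 tested members rose and 1 fell (median -0.34), and without left 30 min replicate 2 it was 1 and 2. Without control replicate 3 there were also 2 falls. Over all genes 8.64% rose and 9.52% fell.

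Genes of the IL-6 and STAT3 pathway were mostly higher. Of 12 tested members, 8 rose and 1 fell (median 0.84). The cytokine itself, Il6, read 785, 1417 and 1269 in left 30 min lungs, against 38.1 to 54.0 (median 48.5) in controls. Il6 rose by 4.0 ± 0.53 (adjusted p = 8e-05), and its 6 control arrays all lay near the low end of the array's range. Il6st, the signal-transducing receptor chain gp130, read 3845, 3984 and 3878 in left 30 min lungs, against 2078 to 2803 (median 2508) in controls. Il6st rose by 0.67 ± 0.15 (adjusted p = 0.0048). Stat3, the factor it activates, read 1929.8, 2056 and 1814 in left 30 min lungs, against 868 to 1154 (median 992) in controls. Stat3 rose by 0.94 ± 0.15 (adjusted p = 0.00031). Other probe sets of both disagreed, since Stat3 had another at -0.25 (adjusted p = 0.54) and Il6st others at 0.11 (adjusted p = 0.71) and 0.67 (adjusted p = 0.013). Among STAT3 targets, Socs2, a feedback inhibitor, differed by 0.97 ± 0.21, the survival kinase Pim3 by 0.93 ± 0.16, and Cebpd, an acute phase factor, by 1.60 ± 0.37. Socs3 read 649.5, 860.3 and 576 in left 30 min lungs, against 247 to 406 (median 307) in controls (log2 difference 1.08 ± 0.29, adjusted p = 0.014) and lost its call without left 30 min replicate 2 (adjusted p = 0.077). The receptor chain Il6r (log2 difference 0.67 ± 0.20, adjusted p = 0.027) lost it without replicate 1 or 2 (adjusted p = 0.093 and 0.095). Ctf1, the family ligand cardiotrophin, was the member that fell (log2 difference -0.59 ± 0.15, adjusted p = 0.011), and without replicate 1 it was not called (adjusted p = 0.08).

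Part of the chemokine genes rose. Of 20 tested, 6 rose and 1 fell (median 0.19), and the count of rises stayed at 6 without any of the left arrays. Cxcl1, a neutrophil attractant, read 2802, 2793 and 3188 in left 30 min lungs, against 260.4 to 680.3 (median 429) in controls. Cxcl1 rose by 2.74 ± 0.30 (adjusted p = 1.4e-05). Cxcl2, another ligand of the same neutrophil receptor, read 729, 1077 and 513 in left 30 min lungs, against 66.7 to 142 (median 111) in controls. Cxcl2 rose by 2.54 ± 0.57 (adjusted p = 0.0051). Ccl2, which attracts monocytes, read 1356, 2584 and 1754 in left 30 min lungs, against 46.8 to 161 (median 89.9) in controls. Ccl2 rose by 4.04 ± 0.44 (adjusted p = 1.3e-05). Each of the 3 was above every control in every left lung, as the rule for naming the largest rises required. Ccl17, a ligand of CCR4 on T cells, differed by 2.05 ± 0.36, the interferon-inducible Cxcl10 by 1.46 ± 0.29 and the constitutive epithelial chemokine Cxcl14 by 0.60 ± 0.13. Macrophage inflammatory proteins were not called: Ccl3 read 318, 779 and 430.4 in left 30 min lungs, against 218 to 394 (median 350.2) in controls. Ccl3 differed by 0.53 ± 0.27 (adjusted p = 0.18). Ccl4 read 175, 386 and 216 in left 30 min lungs, against 202 to 306 (median 276) in controls. Ccl4 differed by -0.06 ± 0.28 (adjusted p = 0.9). Neither were Ccl5 (log2 difference -0.25 ± 0.33, adjusted p = 0.62), Ccl20 (log2 difference -0.25 ± 0.34, adjusted p = 0.64) and Cxcl12 (log2 difference -0.11 ± 0.16, adjusted p = 0.65). The probe sets of Cxcl3 conflicted, since the brightest differed by -0.57 (adjusted p = 0.084) and another by 1.65 (adjusted p = 0.0091), so no direction is given for it. Cxcl13, the B cell attractant, read 179, 83.1 and 119.9 in left 30 min lungs, against 162 to 385 (median 239) in controls (log2 difference -0.86 ± 0.29, adjusted p = 0.041), with overlapping groups, and lost its call without any of 5 arrays, among them left 30 min replicates 2 and 3.

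Among IL-1, TNF, Toll-like receptor and NF-kB genes, 11 of 21 rose and 1 fell (median 0.69), and without left 30 min replicate 2 the rises were 5 and the falls 2. Without control replicate 6 there were also 2 falls. Nfkbia, the NF-kB inhibitor that NF-kB itself induces, read 6251, 5388 and 5434 in left 30 min lungs, against 1576 to 3604 (median 2754) in controls. Nfkbia rose by 1.13 ± 0.21 (adjusted p = 0.0014). Tnf read 152, 235 and 219 in left 30 min lungs, against 23.2 to 81.5 (median 56.7) in controls. Tnf rose by 1.55 ± 0.27 (adjusted p = 0.00071). Relb, a subunit of the non-canonical pathway, differed by 0.69 ± 0.16, and Tnfaip6, an anti-inflammatory hyaluronan-binding protein, by 1.64 ± 0.32. Tlr4, the receptor for endotoxin, fell, at 205, 166 and 199 in left 30 min lungs, against 347 to 557 (median 399.6) in controls. Tlr4 fell by 1.04 ± 0.19 (adjusted p = 0.0013). 6 of the rises were lost without replicate 2, namely Il1b (log2 difference 1.38 ± 0.37, adjusted p = 0.014; then 0.11), the Tlr4 co-receptor Cd14 (log2 difference 1.17 ± 0.32, adjusted p = 0.016; then 0.094), the adaptor Myd88 (log2 difference 0.85 ± 0.21, adjusted p = 0.0081; then 0.059), Birc3 (log2 difference 0.92 ± 0.23, adjusted p = 0.011; then 0.068), the mitochondrial superoxide dismutase Sod2 (log2 difference 0.81 ± 0.27, adjusted p = 0.046; then 0.24, and lost without any other of the 9 arrays too) and Nfkb2 (log2 difference 0.56 ± 0.17, adjusted p = 0.025; then 0.15, and 0.074 without replicate 1). In each of these genes replicate 2, the array with the highest neutrophil sum, was also the highest left array. Neutrophil markers were led by S100a8 and S100a9, the calprotectin subunits stored in neutrophil cytosol. S100a8 read 1727, 4938 and 1314 in left 30 min lungs, against 235 to 696 (median 338) in controls. S100a8 rose by 2.63 ± 0.40 (adjusted p = 0.00024). S100a9 read 4613, 9304 and 3359.9 in left 30 min lungs, against 847 to 2342 (median 1098) in controls. S100a9 rose by 2.11 ± 0.31 (adjusted p = 0.0002). The decoy receptor Il1r2, abundant in neutrophils, read 555, 1492 and 317 in left 30 min lungs, against 39.0 to 106 (median 75.7) in controls. Il1r2 rose by 2.80 ± 0.46 (adjusted p = 0.00044). The granule collagenase Mmp8 read 218, 1014 and 218 in left 30 min lungs, against 66.9 to 167 (median 109.5) in controls (log2 difference 1.56 ± 0.47, adjusted p = 0.026; 0.21 without left 30 min replicate 2). The receptor gene Cxcr1 fell (log2 difference -0.82 ± 0.17, adjusted p = 0.0024), and Cxcr2 (log2 difference 0.22 ± 0.30, adjusted p = 0.64), Cybb (log2 difference -0.00 ± 0.19, adjusted p = 1) and Lcn2 (log2 difference -0.67 ± 0.86, adjusted p = 0.62) did not pass. In whole tissue, more cells of a type and more RNA per cell cannot be told apart, and the part of neutrophils in these rises was not tested. Of other genes with large rises, Lilrb4, an inhibitory receptor of myeloid cells, read 817, 1456 and 633 in left 30 min lungs, against 45.5 to 561 (median 126) in controls (log2 difference 2.53 ± 0.49, adjusted p = 0.0017), with control replicate 2 far above the other controls.

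The promoters of several of these risers held the short motifs that the textbook factors bind. They are shown because the genes rose together and 1 window can be read against another. The windows printed were picked among those with a match, and Tnf, Il1b, Fosb and Sod2 were among the risers without a match. The windows are the 250 bases before the RefSeq start of each gene in GRCr8, and all were searched on both strands for the SRF CArG box, the CRE (TGACGTCA), the AP-1 site (TGANTCA), the NF-kB site and the metal response element (TGCACNC or TGCGCNC), which capitals mark. Egr1 (chr18:26736828-26737077, plus strand) and Dusp5 (chr1:262543524-262543773, plus strand) each held 2 CArG boxes, Ier2 (chr19:40399123-40399372, plus strand) a CRE, Cxcl1 (chr14:17479322-17479571, minus strand) a pair of overlapping NF-kB matches, Cxcl10 (chr14:15988816-15989065, plus strand) NF-kB matches and an AP-1 site, Nfkbia (chr6:78597073-78597322, minus strand) an NF-kB match and a metal response element, and Mt2A (chr19:10838709-10838958, minus strand) 4 metal response elements and an AP-1 site.
Egr1: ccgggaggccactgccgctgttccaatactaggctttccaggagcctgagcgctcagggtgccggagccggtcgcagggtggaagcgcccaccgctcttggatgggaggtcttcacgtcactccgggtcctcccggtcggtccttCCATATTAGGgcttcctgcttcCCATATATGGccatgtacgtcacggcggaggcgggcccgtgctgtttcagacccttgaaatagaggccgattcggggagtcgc
Dusp5: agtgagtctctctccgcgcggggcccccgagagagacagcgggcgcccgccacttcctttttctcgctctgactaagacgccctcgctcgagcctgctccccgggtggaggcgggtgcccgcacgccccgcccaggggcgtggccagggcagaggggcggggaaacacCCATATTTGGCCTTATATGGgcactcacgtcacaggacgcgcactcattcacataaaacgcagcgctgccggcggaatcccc
Ier2: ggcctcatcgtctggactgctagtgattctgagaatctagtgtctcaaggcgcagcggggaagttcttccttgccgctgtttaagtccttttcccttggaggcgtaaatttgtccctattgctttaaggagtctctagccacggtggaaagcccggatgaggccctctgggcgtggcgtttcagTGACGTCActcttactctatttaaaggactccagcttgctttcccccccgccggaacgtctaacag
Cxcl1: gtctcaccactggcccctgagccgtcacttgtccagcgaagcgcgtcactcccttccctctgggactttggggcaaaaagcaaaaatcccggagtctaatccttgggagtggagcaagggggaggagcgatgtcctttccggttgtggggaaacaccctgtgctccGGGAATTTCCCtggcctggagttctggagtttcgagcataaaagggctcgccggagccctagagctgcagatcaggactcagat
Cxcl10: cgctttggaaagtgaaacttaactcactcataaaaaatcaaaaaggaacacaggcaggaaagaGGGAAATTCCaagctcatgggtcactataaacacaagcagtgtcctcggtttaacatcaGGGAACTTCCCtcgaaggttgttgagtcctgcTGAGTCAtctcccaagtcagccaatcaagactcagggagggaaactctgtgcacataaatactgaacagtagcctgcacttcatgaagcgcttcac
Nfkbia: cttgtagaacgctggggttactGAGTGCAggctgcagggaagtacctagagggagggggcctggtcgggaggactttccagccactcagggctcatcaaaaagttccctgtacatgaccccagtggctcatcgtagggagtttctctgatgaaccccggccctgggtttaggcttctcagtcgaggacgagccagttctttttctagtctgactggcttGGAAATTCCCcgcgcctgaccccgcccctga
Mt2A: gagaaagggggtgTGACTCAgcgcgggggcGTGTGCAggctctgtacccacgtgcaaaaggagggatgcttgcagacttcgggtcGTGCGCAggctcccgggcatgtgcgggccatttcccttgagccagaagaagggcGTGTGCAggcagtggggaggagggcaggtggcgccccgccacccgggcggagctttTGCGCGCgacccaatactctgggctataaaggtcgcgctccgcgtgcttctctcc
Of 47 called rises in the 6 lists of AP-1, early response, feedback, chemokine, NF-kB and metal genes, 38 had a promoter entry and 23 of these (60.5%) held at least 1 motif, against 43.8% of the 6471 tested genes with an entry. Over the whole array it was 48.2% of called rises and 45.0% of called falls. The lists hold known targets of these factors, so their share is no test of a link to the rises. Of the 38, 5 held a CArG box, 3 a CRE, 7 an AP-1 site and 5 an NF-kB site. A metal response element was held by 10, a smaller share than in the tested genes. Over all 33469 promoters of the table, 1.50% held a CArG box, 1.59% a CRE, 6.34% an AP-1 site, 6.33% an NF-kB site and 20.6% a metal response element. Over the 6471 tested genes the shares were 1.38%, 2.78%, 4.59%, 8.56% and 32.5%, in the same order. Among 560 called rises of the whole array the shares were 2.32%, 4.82%, 5.71%, 11.1% and 33.0%, and among 607 called falls 0.988%, 2.31%, 3.62%, 8.57% and 34.4%. A match is a stretch of letters and not a bound site.

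Mt2A, a zinc- and copper-binding protein, read 7460.3, 8219 and 7089 in left 30 min lungs, against 376 to 959 (median 443) in controls. Mt2A rose by 3.74 ± 0.32 (adjusted p = 1.5e-06), and its 3 left values differed little. Of 9 tested metallothionein and zinc transport genes, 2 rose and none fell (median 0.09). The other was the sensor Mtf1 (log2 difference 0.50 ± 0.16, adjusted p = 0.034), which lost its call without any of 5 arrays. Without control replicate 1, 4 or 5 or left 30 min replicate 3 the count of rises was 1. Mt2A is also a glucocorticoid target, and of the genes listed as responsive to that hormone, 10 of 18 rose and 1 fell (median 0.54). Fkbp5, the chaperone that dampens the glucocorticoid receptor, read 2746, 1705 and 1560.1 in left 30 min lungs, against 255 to 507 (median 302) in controls. Fkbp5 rose by 2.52 ± 0.22 (adjusted p = 1.7e-06). Sgk1, a kinase that stimulates sodium transport, read 2197, 2627 and 2844 in left 30 min lungs, against 1434 to 1769 (median 1598) in controls. Sgk1 rose by 0.67 ± 0.10 (adjusted p = 0.00022). Gadd45a differed by 1.13 ± 0.16, glutamine synthetase Glul by 0.79 ± 0.17, though its other probe sets differed by -0.18 (adjusted p = 0.52) and 0.05 (adjusted p = 0.89), and the anti-inflammatory annexin Anxa1 by 0.41 ± 0.10. The clock gene Per1 (log2 difference 0.88 ± 0.28, adjusted p = 0.034) lost its call without any of 6 arrays, the 3 left ones among them, and the only fall, of the receptor gene Nr3c1 (log2 difference -0.38 ± 0.13, adjusted p = 0.048), without any of 8.

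Of 20 coagulation and fibrinolysis genes, 5 rose and 1 fell (median 0.31). F3, tissue factor, the starter of coagulation, read 3734, 5159.9 and 3167 in left 30 min lungs, against 571 to 1593 (median 847) in controls. F3 rose by 2.11 ± 0.30 (adjusted p = 0.00017). Plaur, the urokinase receptor, read 252, 873 and 357 in left 30 min lungs, against 67.7 to 123 (median 82.6) in controls. Plaur rose by 2.02 ± 0.38 (adjusted p = 0.0015). Tfpi2, a protease inhibitor of the matrix, read 799, 1429 and 1212 in left 30 min lungs, against 68.0 to 82.0 (median 69.5) in controls. Tfpi2 rose by 3.56 ± 0.50 (adjusted p = 0.00014). In all 3 genes each left lung was above each control, which the rule for naming the largest rises required. The fall, of the factor XIII chain F13a1 (log2 difference -0.64 ± 0.19, adjusted p = 0.024), was lost without control replicate 1 or left 30 min replicate 1 or 2. Plat, tissue plasminogen activator (log2 difference 0.52 ± 0.21, adjusted p = 0.092), and Tfpi, the inhibitor of tissue factor (log2 difference -0.59 ± 0.22, adjusted p = 0.064), did not pass. P-selectin, Selp, which tethers leukocytes to endothelium and platelets, read 249, 444 and 494 in left 30 min lungs, against 68.6 to 105 (median 74.9) in controls. Selp rose by 1.98 ± 0.41 (adjusted p = 0.0033). E-selectin, Sele, made by activated endothelium, read 99.4, 194 and 174 in left 30 min lungs, against 3.48 to 58.3 (median 18.1) in controls (adjusted p = 0.0026), and because its mean control signal was about as low as the added 25 units no fold is given. Of the 24 endothelial genes, 4 rose and 7 fell (median -0.06), but without left 30 min replicate 1 only 1 fall was called, and without any left array 2 rises. The fall that remained was Klf2. Kdr, the main VEGF receptor (log2 difference -0.42 ± 0.13, adjusted p = 0.029), and the apelin receptor Aplnr (log2 difference -0.71 ± 0.17, adjusted p = 0.0069) were lost without replicate 1 (adjusted p = 0.16 and 0.064). The call of Kdr was also lost without control replicate 5 or left 30 min replicate 2 (adjusted p = 0.053 and 0.055). Gja5, the arterial gap junction protein connexin 40, fell, at 848, 1034 and 1284 in left 30 min lungs, against 1858 to 2343 (median 1952) in controls. Gja5 fell by 0.93 ± 0.14 (adjusted p = 0.00019). Gpr182, an endothelial scavenger of chemokines, fell as well (152, 202 and 158 in left 30 min lungs, against 383 to 601 (median 481) in controls; log2 difference -1.37 ± 0.23, adjusted p = 0.00068).

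Of 23 vasoactive genes, 4 rose and 4 fell (median -0.13), and these counts fell to 2 rises without left 30 min replicate 2 and 1 fall without replicate 1. Agtr1a, the angiotensin II receptor, read 1123, 1261 and 1109.5 in left 30 min lungs, against 573 to 769 (median 621) in controls (log2 difference 0.82 ± 0.13, adjusted p = 0.00041), with another probe set at 0.39 (adjusted p = 0.15). Nt5e, the ecto-enzyme that makes adenosine, read 278, 351 and 266 in left 30 min lungs, against 134 to 194 (median 172) in controls. Nt5e rose by 0.75 ± 0.17 (adjusted p = 0.005). The adenosine receptor Adora2b (log2 difference 0.80 ± 0.24, adjusted p = 0.025) lost its call without replicate 2 or 3. Pde5a, which degrades cyclic GMP, read 129, 255 and 209 in left 30 min lungs, against 291 to 505 (median 350.2) in controls. Pde5a fell by 0.85 ± 0.18 (adjusted p = 0.0039). Calcrl, the receptor of adrenomedullin and CGRP, read 375, 1022 and 871 in left 30 min lungs, against 1152 to 1785 (median 1462) in controls. Calcrl fell by 1.03 ± 0.26 (adjusted p = 0.011), and lost its call without replicate 1 (adjusted p = 0.098).

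Genes of growth arrest and cell survival included 8 of 29 that rose and 2 that fell, and each of these calls held without every array. The list median was -0.05. Over all genes 8.64% rose and 9.52% fell, so the rises of this list exceeded the share of all genes and the falls did not. Bcl2l1, whose main product BCL-XL blocks apoptosis, read 1974, 2002 and 1514 in left 30 min lungs, against 352 to 583 (median 477) in controls. Bcl2l1 rose by 1.90 ± 0.15 (adjusted p = 8.7e-07), and another probe set of it differed by -0.25 (adjusted p = 0.59). Gadd45g, a stress sensor that slows the cell cycle, read 1412, 1676 and 2288 in left 30 min lungs, against 285 to 442 (median 380.0) in controls. Gadd45g rose by 2.17 ± 0.23 (adjusted p = 1.1e-05). Tnfrsf12a, the receptor of the cytokine TWEAK, read 734, 1639 and 1276 in left 30 min lungs, against 194 to 247 (median 226) in controls. Tnfrsf12a rose by 2.25 ± 0.29 (adjusted p = 6.7e-05). All left lungs were above all controls for the 3, which the rule for naming required of Gadd45g and Tnfrsf12a. Cdkn1a, the cell cycle inhibitor p21, differed by 1.17 ± 0.20, with another probe set at 0.51 (adjusted p = 0.12). The pro-apoptotic Bcl2l11 (BIM) differed by 1.20 ± 0.17, Gadd45b by 0.97 ± 0.16, and the p53 ligase Mdm2 by 1.16 ± 0.25, with another probe set at -0.01 (adjusted p = 0.99). Xiap, an inhibitor of caspases, fell, at 45.4, 67.6 and 80.6 in left 30 min lungs, against 141 to 308 (median 234) in controls. Xiap fell by 1.45 ± 0.24 (adjusted p = 0.00052). Cdkn2b, the inhibitor p15, read 18.5, 23.1 and 255 in left 30 min lungs, against 305 to 542 (median 404) in controls. Cdkn2b fell by 2.37 ± 0.45 (adjusted p = 0.0017), and left 30 min replicate 3 stood far above the other two left lungs.

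Some of the largest rises lay outside the lists described so far. Sfn, the epithelial 14-3-3 protein sigma, read 329.7, 1121 and 578 in left 30 min lungs, against 59.4 to 132 (median 112) in controls. Sfn rose by 2.29 ± 0.43 (adjusted p = 0.0015). Prss22, a serine protease of airway epithelium, read 345, 1080.4 and 664 in left 30 min lungs, against 28.4 to 66.3 (median 44.8) in controls. Prss22 rose by 3.24 ± 0.65 (adjusted p = 0.0022). Left 30 min replicate 2 was the highest in both. Depp1, a FOXO-regulated gene, read 3032, 6323 and 5527 in left 30 min lungs, against 699 to 1417 (median 1275) in controls. Depp1 rose by 2.05 ± 0.29 (adjusted p = 0.00016). Coq10b, a coenzyme Q binding protein, read 4734, 2649 and 3084 in left 30 min lungs, against 652 to 1136 (median 700.2) in controls. Coq10b rose by 2.07 ± 0.36 (adjusted p = 0.00083). Aqp3, a water and glycerol channel of airway basal cells, read 183, 151 and 153 in left 30 min lungs, against 3.99 to 8.67 (median 5.89) in controls (adjusted p = 0.0036), with controls so low that no fold is given. Gtf3c5, a subunit of a polymerase III factor, read 258, 232 and 307 in left 30 min lungs, against 16.6 to 74.1 (median 22.8) in controls. Gtf3c5 rose by 2.41 ± 0.31 (adjusted p = 6.5e-05). The gene Lypd8l1 read 749, 2492 and 556 in left 30 min lungs, against 140.2 to 295 (median 183) in controls. Lypd8l1 rose by 2.30 ± 0.38 (adjusted p = 0.00049).

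Hypoxia and glycolysis genes rose only in part, with 9 of 39 higher and 3 lower (median 0.10), the falls 1 without left 30 min replicate 2. Pfkfb3, which speeds glycolysis, read 2080, 2514 and 1664 in left 30 min lungs, against 311 to 997 (median 504) in controls. Pfkfb3 rose by 1.80 ± 0.33 (adjusted p = 0.0012), but another probe set differed by -0.01 (adjusted p = 0.98). The iron uptake receptor Tfrc differed by 0.88 ± 0.17, with another probe set at 0.37 (adjusted p = 0.34), and Higd1a by 0.54 ± 0.12. Egln1, an oxygen sensor that marks HIF-1 alpha for destruction, fell, at 624, 679 and 643 in left 30 min lungs, against 843 to 988 (median 911) in controls. Egln1 fell by 0.47 ± 0.10 (adjusted p = 0.0029). Hif1a itself (log2 difference 0.24 ± 0.13, adjusted p = 0.22) and Tpi1 (log2 difference -0.36 ± 0.14, adjusted p = 0.073) did not pass. Transporters that bring in amino acids, glucose, phosphate and nucleosides moved in 1 direction, with 11 of 31 higher and none lower (median 0.15), although 1 fall was called without left 30 min replicate 1 or 2. Slc7a1, the cationic amino acid carrier, read 672, 954 and 866 in left 30 min lungs, against 237 to 298 (median 266) in controls. Slc7a1 rose by 1.55 ± 0.30 (adjusted p = 0.0019). Slc7a5, the large neutral carrier, read 429, 700.4 and 521 in left 30 min lungs, against 141 to 274 (median 208) in controls. Slc7a5 rose by 1.30 ± 0.27 (adjusted p = 0.003). Slc28a2, a nucleoside carrier, read 852, 753 and 711 in left 30 min lungs, against 209 to 300.1 (median 247) in controls. Slc28a2 rose by 1.51 ± 0.22 (adjusted p = 0.00022). Slc2a3, a high-affinity glucose carrier, differed by 1.47 ± 0.32, and its other probe set by -0.03 (adjusted p = 0.95). Polyamine genes showed both arms raised: Odc1, the first step of synthesis, read 1919, 2032 and 1898 in left 30 min lungs, against 773 to 1038 (median 872) in controls. Odc1 rose by 1.12 ± 0.24 (adjusted p = 0.0043). Sat1, which starts their breakdown, read 7016, 6518 and 5605 in left 30 min lungs, against 2883 to 3582 (median 3247) in controls. Sat1 rose by 0.97 ± 0.13 (adjusted p = 8.4e-05). In that list 4 of 17 rose and 1 fell (median 0.06), and the fall, of Ddah1, was lost without left 30 min replicate 2 (adjusted p = 0.1).

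RNA and ribosome production genes rose in modest steps. Of 43 genes of ribosome biogenesis, 14 rose and none fell (median 0.37), and 7 rose without left 30 min replicate 1. Gnl3, nucleostemin, read 1146, 1319.7 and 1047 in left 30 min lungs, against 488 to 735 (median 567) in controls. Gnl3 rose by 0.99 ± 0.20 (adjusted p = 0.0024). Wdr43, a factor of early rRNA processing, read 771, 794 and 771 in left 30 min lungs, against 321 to 487 (median 425) in controls. Wdr43 rose by 0.87 ± 0.17 (adjusted p = 0.0021). Dkc1, the pseudouridine synthase dyskerin, read 580.2, 563 and 554 in left 30 min lungs, against 212 to 407 (median 326) in controls. Dkc1 rose by 0.83 ± 0.17 (adjusted p = 0.0031). The left values of the 3 were tight and above every control. Of 39 ribosomal protein genes none rose and 1 fell (median -0.09), and this fall, of Rpl11, was lost without any of the 9 arrays. Splicing factors gave 15 of 54 rises and no fall (median 0.10), and 7 rises when the actin ratio was a covariate. Without control replicate 4 or left 30 min replicate 1 or 3 there was 1 fall. Hnrnpa1 read 1806, 1891 and 1429 in left 30 min lungs, against 681 to 794 (median 721) in controls. Hnrnpa1 rose by 1.19 ± 0.12 (adjusted p = 9.5e-06), and its other probe sets differed by 0.32 (adjusted p = 0.21) and 0.54 (adjusted p = 0.0033). Srsf5, a serine- and arginine-rich splicing factor, read 3975, 3914 and 4086 in left 30 min lungs, against 1953 to 3048 (median 2423) in controls. Srsf5 rose by 0.72 ± 0.13 (adjusted p = 0.001). Rbm3, known as a cold-inducible RNA-binding protein, differed by 0.75 ± 0.15. Ccnl1, a cyclin found at splicing speckles, read 2921, 2934 and 2382 in left 30 min lungs, against 845 to 974 (median 891) in controls. Ccnl1 rose by 1.58 ± 0.18 (adjusted p = 1.8e-05). Probe sets of Celf2 conflicted, at 1.11 for the brightest and -0.54 (adjusted p = 0.025) for another, so its direction is uncertain.

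Of 28 genes of the unfolded protein and integrated stress responses, 4 rose and 3 fell (median -0.07), shares near those over all genes, and 2 rose without left 30 min replicate 1. Atf4, the factor of the integrated stress response, read 4639, 4870.5 and 4783 in left 30 min lungs, against 2432 to 3068 (median 2717) in controls. Atf4 rose by 0.80 ± 0.13 (adjusted p = 0.00041). Ppp1r15a, the phosphatase subunit that ends that response, read 1465, 1693 and 1411 in left 30 min lungs, against 404 to 1201 (median 634) in controls. Ppp1r15a rose by 1.08 ± 0.26 (adjusted p = 0.0074). Sdf2l1 (log2 difference -0.57 ± 0.12, adjusted p = 0.0033) and Sel1l (log2 difference -0.57 ± 0.13, adjusted p = 0.0049), which serve folding and disposal in the organelle, fell. Chaperones of the heat shock list gave 3 rises and 2 falls of 25 (median 0.01), shares near those over all genes. The rises were 1 without control replicate 1 or 6 or left 30 min replicate 1, and 0 of limma's calls without left 30 min replicate 2, and the falls 1 without any of 6 arrays. Hspa4, a nucleotide exchange factor of the HSP70 cycle, fell, at 307, 333 and 443 in left 30 min lungs, against 780.1 to 919 (median 869) in controls. Hspa4 fell by 1.22 ± 0.15 (adjusted p = 3.6e-05). Hspa1a, the inducible HSP70, read 2196, 2203 and 1696 in left 30 min lungs, against 856 to 1452 (median 1108) in controls. Hspa1a rose by 0.83 ± 0.27 (adjusted p = 0.037), and lost its call without any of 6 arrays. Ubiquitin enzymes gave 10 rises and 3 falls of 45 (median 0.05), with 6 rises without left 30 min replicate 1 or 2. The conjugating enzyme Ube2r2 read 900.4, 1159 and 1026 in left 30 min lungs, against 456 to 591 (median 490.5) in controls. Ube2r2 rose by 0.99 ± 0.11 (adjusted p = 1.7e-05). Interferon response genes gave 8 rises and 1 fall of 27 (median 0.33), 5 rises without left 30 min replicate 2, and no fall without control replicate 4 or 5 or left 30 min replicate 3. Ifngr1, the interferon gamma receptor, read 5483, 4767 and 5341 in left 30 min lungs, against 2808 to 3405 (median 3168) in controls. Ifngr1 rose by 0.73 ± 0.11 (adjusted p = 0.00025). Eif2ak2, the kinase PKR, read 524, 430.2 and 371 in left 30 min lungs, against 176 to 263 (median 214) in controls. Eif2ak2 rose by 0.96 ± 0.16 (adjusted p = 0.00045).

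Falls included genes of BMP and Wnt signalling. Of 35 BMP and TGF-beta genes 9 fell and 2 rose (median -0.19), and without left 30 min replicate 1 the falls were 6. Bmpr2, the receptor whose loss causes heritable pulmonary hypertension in people, read 374, 412 and 359.5 in left 30 min lungs, against 1311 to 2179 (median 1794) in controls. Bmpr2 fell by 2.12 ± 0.20 (adjusted p = 4.7e-06). Its 3 left lungs differed little from each other and lay far below the controls. Bmpr1a, its type I partner, read 216, 212 and 285 in left 30 min lungs, against 399 to 532 (median 451) in controls. Bmpr1a fell by 0.89 ± 0.14 (adjusted p = 0.0004). The ligand Bmp3 read 159, 139 and 131 in left 30 min lungs, against 251 to 628 (median 403) in controls. Bmp3 fell by 1.36 ± 0.20 (adjusted p = 0.0002). The inhibitory SMADs, which the pathway induces against itself, were both lower: Smad6 read 220.5, 404 and 296 in left 30 min lungs, against 699 to 963 (median 896) in controls. Smad6 fell by 1.45 ± 0.22 (adjusted p = 0.00021). Smad7 read 299, 330.1 and 332 in left 30 min lungs, against 454 to 813 (median 684) in controls. Smad7 fell by 0.94 ± 0.17 (adjusted p = 0.0011). The BMP targets Id1, Id3 and Id4, of another list, fell too. Acvr1 (log2 difference -0.60 ± 0.16, adjusted p = 0.013) and Tgfb3 (log2 difference -0.49 ± 0.13, adjusted p = 0.013) lost their calls without left 30 min replicate 1 (adjusted p = 0.085 and 0.081), and the decoy receptor Bambi (log2 difference -0.70 ± 0.17, adjusted p = 0.0091) without replicate 2 (adjusted p = 0.08). The risers were Smad1, which carries the BMP signal (log2 difference 0.64 ± 0.14, adjusted p = 0.0051; another probe set 0.19 (adjusted p = 0.55)), and Tgfb2 (log2 difference 0.76 ± 0.13, adjusted p = 0.00091; another 0.32 (adjusted p = 0.21)).

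In the Wnt list 5 of 23 genes fell and 2 rose (median 0.03), 1 rise without left 30 min replicate 3. Axin2, a direct target and brake of beta-catenin, read 192, 161 and 229 in left 30 min lungs, against 429 to 696 (median 567) in controls. Axin2 fell by 1.40 ± 0.14 (adjusted p = 4.7e-06). Lrp6, the co-receptor, read 241, 264 and 364 in left 30 min lungs, against 801 to 1215 (median 957) in controls. Lrp6 fell by 1.68 ± 0.18 (adjusted p = 1.1e-05). Fzd2 read 222, 177 and 223 in left 30 min lungs, against 517 to 617 (median 586) in controls. Fzd2 fell by 1.38 ± 0.25 (adjusted p = 0.0011). Fzd1 read 565, 530.4 and 453 in left 30 min lungs, against 852 to 1069.6 (median 961) in controls. Fzd1 fell by 0.87 ± 0.18 (adjusted p = 0.0032). No left lung overlapped a control in these 4. Tcf7l2, a nuclear partner of beta-catenin, rose (1219, 1009 and 1231 in left 30 min lungs, against 528 to 720.3 (median 565) in controls; log2 difference 0.93 ± 0.20, adjusted p = 0.0042).

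Of 31 transcription factors of lung cell identity and development, 11 fell, 6 rose and 14 did not pass (median -0.34), with 7 falls without left 30 min replicate 1. Foxo1, a factor held in check by insulin and growth factor signals, read 125, 132 and 163 in left 30 min lungs, against 457 to 628 (median 506) in controls. Foxo1 fell by 1.72 ± 0.17 (adjusted p = 4.7e-06). Its relative Foxo3 rose (log2 difference 0.59 ± 0.15, adjusted p = 0.011), a call lost without replicate 1 (adjusted p = 0.054). Creb1, which binds the CRE, read 154, 75.1 and 81.4 in left 30 min lungs, against 261 to 628 (median 378) in controls. Creb1 fell by 1.78 ± 0.26 (adjusted p = 0.00019). Nkx2-1, the master factor of lung epithelium, read 1382, 898 and 1223 in left 30 min lungs, against 1872 to 2338 (median 2234) in controls. Nkx2-1 fell by 0.91 ± 0.19 (adjusted p = 0.0036). Nr2f2, the venous and mesenchymal factor COUP-TFII, read 1022, 656 and 725 in left 30 min lungs, against 1422 to 1817 (median 1623) in controls. Nr2f2 fell by 1.02 ± 0.19 (adjusted p = 0.0016). Hoxa5 read 890.3, 717 and 607 in left 30 min lungs, against 1050.3 to 2322 (median 1759) in controls (log2 difference -1.16 ± 0.26, adjusted p = 0.0048). The mesodermal homeobox gene Meox2 read 313, 171 and 318 in left 30 min lungs, against 654 to 844 (median 733) in controls. Meox2 fell by 1.44 ± 0.19 (adjusted p = 7.6e-05). The retinoic acid receptors Rarb (log2 difference -0.60 ± 0.13, adjusted p = 0.0042) and Rarg (log2 difference -1.24 ± 0.15, adjusted p = 4.1e-05) fell. Ets2 (log2 difference 1.0 ± 0.17, adjusted p = 0.00076) and Foxp1 (log2 difference 0.97 ± 0.15, adjusted p = 0.00034) rose. Chromatin genes with falls were the bromodomain reader Brd3 (log2 difference -0.62 ± 0.10, adjusted p = 0.0004), Arid4a (log2 difference -0.79 ± 0.14, adjusted p = 0.00093) and the maintenance methyltransferase Dnmt1 (log2 difference -0.86 ± 0.19, adjusted p = 0.0045), 3 of 35, with no rise (median 0.01). This share of falls was near the 9.52% over all genes.

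**Figure D2:**
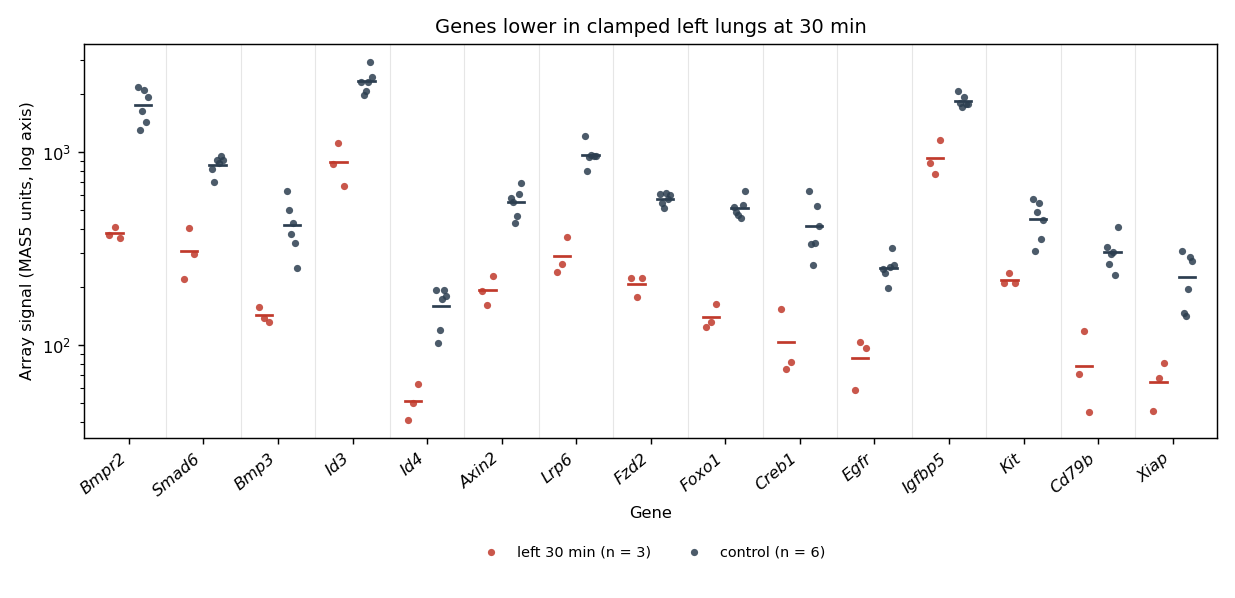
Array signals on a log axis for 15 genes that fell in clamped left lungs at 30 min: points are arrays, left 30 min (n = 3) beside control (n = 6), and lines are group means. Every left 30 min point lies below every control point for these 15 genes, and Bmpr2 shows the tight cluster of 359.5 to 412 in left 30 min lungs, against 1311 to 2179 in controls. The largest of these falls, Bmpr2 among them, were picked for lack of overlap.

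Among kinases and growth factor binding proteins, 4 of 29 AMPK, insulin and IGF genes fell and 1 rose (median -0.08). Over all genes 9.52% fell and 8.64% rose. Prkaa2, which encodes a catalytic chain of AMPK, the kinase that senses low energy, read 6.63, 6.46 and 7.42 in left 30 min lungs, against 102 to 321 (median 273) in controls (adjusted p = 3.8e-07), which places all left lungs near the bottom of the array's range, so no fold is given. Prkaa2 was also near the bottom in right 30 min lungs (9.67, 7.78 and 11.4) and left 3 h lungs (6.54, 6.64 and 9.17), so its fall was not particular to this group. Igfbp6 read 343, 322 and 315 in left 30 min lungs, against 656 to 1565 (median 1005) in controls. Igfbp6 fell by 1.55 ± 0.28 (adjusted p = 0.00099). Igfbp5 read 878, 768 and 1158 in left 30 min lungs, against 1712 to 2078 (median 1799) in controls. Igfbp5 fell by 0.99 ± 0.21 (adjusted p = 0.0041). Igfbp3, another carrier of IGF, rose (616, 648 and 1109.5 in left 30 min lungs, against 267 to 460.0 (median 429) in controls; log2 difference 0.93 ± 0.19, adjusted p = 0.0027). Of the remaining large falls, several concern cell shape and surface. Palld, an actin bundling protein, read 328, 235 and 282 in left 30 min lungs, against 549 to 1344 (median 820.3) in controls. Palld fell by 1.51 ± 0.21 (adjusted p = 0.00014). The adhesion receptor Adgrl3 read 79.0, 103 and 46.8 in left 30 min lungs, against 116 to 349.6 (median 243) in controls. Adgrl3 fell by 1.41 ± 0.28 (adjusted p = 0.0019). Ndst1, which sulphates heparan chains, differed by -1.32 ± 0.19, the tetraspanin Tspan18 by -1.25 ± 0.19 and the potassium channel subunit Kcne2 by -1.30 ± 0.26. Rbfox2, a regulator of alternative splicing, read 73.1, 100.3 and 159 in left 30 min lungs, against 277 to 471 (median 348) in controls. Rbfox2 fell by 1.50 ± 0.19 (adjusted p = 5.6e-05). Chtf8, a replication clamp loader subunit, read 333, 373 and 425 in left 30 min lungs, against 968 to 1209.9 (median 1077) in controls. Chtf8 fell by 1.46 ± 0.11 (adjusted p = 3.8e-07). Pcmtd2 fell on its brightest probe set (log2 difference -1.31 ± 0.18, adjusted p = 0.00011) and differed by 0.14 (adjusted p = 0.71) on another.

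The alveolar and club cell lists gave some falls and no rise. With all arrays the share of falls was above the 9.52% of all genes in the type I and club cell lists. The mean log2 signal of the alveolar type I list was lower in each left lung, at 11.09, 10.999 and 11.26 in left 30 min lungs, against 11.33 to 11.43 in controls. That of the club cell list was lower too, at 10.40, 10.24 and 10.43 in left 30 min lungs, against 10.49 to 10.61 in controls (exact permutation test, p = 0.0238 for each, the smallest this design allows, adjusted 0.0675). The summed signals of both lists overlapped between the groups. The type I mean includes Akap5, which fell by 1.95, while the median difference of that list was -0.12. Of 16 surfactant and alveolar type II genes none rose and only Nkx2-1 fell (median -0.11). Sftpb read 9924, 7354 and 7941 in left 30 min lungs, against 8157 to 9177 (median 8334) in controls. Sftpb differed by -0.02 ± 0.15 (adjusted p = 0.94). The lipid pump Abca3 read 2177, 1741 and 2202 in left 30 min lungs, against 2255 to 2683 (median 2378) in controls. Abca3 differed by -0.24 ± 0.24 (adjusted p = 0.51). Of 12 alveolar type I genes none rose and 2 fell (median -0.12). They were Akap5 and Clic5. Akap5, an anchor of protein kinase A, read 97.0, 102 and 211 in left 30 min lungs, against 394 to 703 (median 606) in controls. Akap5 fell by 1.95 ± 0.48 (adjusted p = 0.0086). The call of Clic5, a chloride channel protein (log2 difference -0.39 ± 0.11, adjusted p = 0.02), was lost without replicate 1 or 2 (adjusted p = 0.076 and 0.069). Ager, the most specific type I marker, read 7649, 6184 and 6366 in left 30 min lungs, against 6808 to 7788 (median 7269) in controls (log2 difference -0.12 ± 0.12, adjusted p = 0.53), with overlapping groups. Of 17 club cell and drug metabolism genes none rose and 3 fell (median -0.20), 1 without left 30 min replicate 1, and the secretoglobin Scgb1a1 differed by 0.06 ± 0.11 (adjusted p = 0.74). Fluid clearance genes gave 4 rises and 2 falls of 19 (median 0.01), 1 fall without left 30 min replicate 3. Atp1b1, the beta subunit of the sodium pump, read 5145, 4046 and 4156 in left 30 min lungs, against 2253 to 2622 (median 2461) in controls (log2 difference 0.85 ± 0.11, adjusted p = 7.6e-05), with all left lungs above all controls. The sodium channel subunits did not pass: Scnn1a differed by 0.37 (adjusted p = 0.31), Scnn1b by -0.11 (0.66) and Scnn1g by 0.01 (0.98). Mesothelial markers went both ways, with Krt18, also made by other simple epithelia, higher (1940.2, 2058 and 1566 in left 30 min lungs, against 949 to 1141 (median 1031) in controls; log2 difference 0.83 ± 0.20, adjusted p = 0.0069) and Msln, mesothelin, lower (565, 299.6 and 425 in left 30 min lungs, against 874 to 1013 (median 913) in controls; log2 difference -1.11 ± 0.17, adjusted p = 0.00028). Cdh3, a cadherin of the same list of 5, fell (log2 difference -0.54 ± 0.17, adjusted p = 0.038) but lost its call without any of 7 arrays.

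Markers of several resident immune cells fell in part. The mast cell list had 3 falls of 7 and no rise (median -0.50). It also holds Kitlg, the ligand of the mast cell receptor Kit, so it is not made of mast cell markers alone. Kit, the stem cell factor receptor, read 209, 236 and 211 in left 30 min lungs, against 306 to 571 (median 468) in controls. Kit fell by 0.94 ± 0.20 (adjusted p = 0.0033). Its ligand Kitlg read 1709.5, 1376 and 1649 in left 30 min lungs, against 1969 to 2515 (median 2259.6) in controls. Kitlg fell by 0.50 ± 0.11 (adjusted p = 0.0038). The mast cell protease Cpa3 read 139.9, 186 and 155 in left 30 min lungs, against 232 to 452 (median 308) in controls. Cpa3 fell by 0.92 ± 0.27 (adjusted p = 0.022). The summed signal of the mast list was 3849.6, 3379.9 and 3409.9 in left 30 min lungs, against 4359 to 5176 in controls. Of these sums Kitlg alone gave 1709.5, 1376 and 1649 in left 30 min lungs, against 1969 to 2515 in controls. Cpa3 lost its call without left 30 min replicate 1 or 3. Of 14 monocyte and macrophage genes 4 fell and 1 rose (median -0.36), 2 falls without left 30 min replicate 1, and no rise without replicate 2, since the riser was Cd14. The summed signal of the list was 29670, 29000 and 26718 in left 30 min lungs, against 31516 to 35783 in controls. Csf1r, the receptor that sustains macrophages, read 1134, 1172 and 1049.8 in left 30 min lungs, against 1295 to 1866 (median 1679) in controls. Csf1r fell by 0.52 ± 0.12 (adjusted p = 0.007). Lyz2, lysozyme, differed by -0.14 ± 0.11 (adjusted p = 0.4). Of 18 lymphocyte genes 5 fell and 1 rose (median -0.32), with 2 falls without left 30 min replicate 1 and 3 without replicate 3. The summed signal of the lymphocyte list was 4689, 8443 and 5144 in left 30 min lungs, against 5672 to 7289 in controls. Left 30 min replicate 2 thus lay above every control and the other left lungs below. Cd79b, the B cell receptor chain, read 71.2, 118 and 45.1 in left 30 min lungs, against 230.4 to 409.6 (median 301) in controls. Cd79b fell by 1.72 ± 0.34 (adjusted p = 0.0022). Cd4 read 115, 246 and 162 in left 30 min lungs, against 244 to 369 (median 357) in controls (log2 difference -0.91 ± 0.18, adjusted p = 0.0025), with 1 left value inside the control range. The T cell receptor chains Cd3g (log2 difference -0.40 ± 0.21, adjusted p = 0.2) and Cd3d (log2 difference -0.37 ± 0.25, adjusted p = 0.32) did not pass. Il7r, the interleukin 7 receptor, was the riser, at 249, 371 and 362 in left 30 min lungs, against 51.6 to 120.2 (median 90.6) in controls. Il7r rose by 1.64 ± 0.30 (adjusted p = 0.0013). None of 6 erythroid genes and none of 16 cardiac muscle genes was called by limma (medians 0.07 and -0.41), with 1 erythroid rise without control replicate 3 or 4. Cardiac transcripts varied between arrays of both groups: Myh6 read 62.8, 80.0 and 813 in left 30 min lungs, against 36.9 to 1162 (median 398) in controls. Myh6 differed by -0.81 ± 0.95 (adjusted p = 0.58).

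Oxidative phosphorylation genes gave few calls. Of 56 oxidative phosphorylation subunits none rose and 5 fell (median -0.10), a share close to the 9.52% of all genes. The falls were 3 without control replicate 2 or left 30 min replicate 1, 2 without control replicate 3 or 4 or left 30 min replicate 2, and 1 without left 30 min replicate 3. Only Ndufs8 kept its call without each array (451, 505 and 441 in left 30 min lungs, against 607 to 767 (median 723) in controls; log2 difference -0.59 ± 0.11, adjusted p = 0.0017). Of 33 genes of fatty acid use 6 fell and 1 rose (median -0.19), 3 falls without control replicate 1 or left 30 min replicate 1 or 2. With all arrays the falls of this list were a larger share than the 9.52% of all genes. Hadha, the trifunctional enzyme of beta-oxidation, read 749, 826 and 797 in left 30 min lungs, against 1009.7 to 1123 (median 1035) in controls (log2 difference -0.39 ± 0.09, adjusted p = 0.0046), and Acsl1, which activates fatty acids, was the riser (log2 difference 0.84 ± 0.20, adjusted p = 0.0066), joined by another without left 30 min replicate 2. Of 31 matrix protease and remodelling genes 5 rose and 1 fell (median 0.24), the fall being Tgfb3. Timp1, a metalloprotease inhibitor, read 2650.1, 3263 and 2360.1 in left 30 min lungs, against 772 to 1013 (median 902) in controls. Timp1 rose by 1.59 ± 0.31 (adjusted p = 0.0017). Adamts1, a protease of versican, read 3353, 2527 and 2561 in left 30 min lungs, against 678 to 1429 (median 734) in controls. Adamts1 rose by 1.62 ± 0.30 (adjusted p = 0.0013). Of 33 collagen, laminin and integrin genes 7 rose and 5 fell (median 0.13), and 4 and 2 without left 30 min replicate 1. The rises were also 4 without control replicate 3 or 4 or left 30 min replicate 2 or 3, and the falls 3 without control replicate 1 or 6 or left 30 min replicate 2 or 3. The laminin chain Lama5 read 2529.8, 2514 and 3040.3 in left 30 min lungs, against 882 to 1215 (median 1050.1) in controls. Lama5 rose by 1.35 ± 0.25 (adjusted p = 0.0015). Other lists held few calls: 1 of 33 proteasome genes rose and none fell (median 0.05), 1 of 25 genes of cholesterol synthesis and handling fell (median 0.03), and 1 of 14 Notch genes fell (median -0.27). Without control replicate 5 there were 3 Notch falls, and no cholesterol fall. No cholesterol fall was called without left 30 min replicate 1 or 3 either. Without left 30 min replicate 2 there were 2 proteasome falls, and without replicate 1 there was 1 cholesterol rise. Of 31 oxidant defence genes 5 rose and 4 fell (median -0.13), among them the haem oxygenase gene Hmox1 (log2 difference 1.31 ± 0.35, adjusted p = 0.014), and each of these 9 calls was lost without at least 1 array. Without left 30 min replicate 2 limma called 0 of these rises, and without replicate 1 it called 0 of these falls. In lists with no call in a direction, an unadjusted p under 0.05 was met by no AP-1, feedback, metal, mast cell or ribosome biogenesis gene in that direction, by 7 lower splicing genes, 4 higher chromatin genes, 2 higher alveolar type I genes, 2 higher club cell genes, 1 higher alveolar type II gene, 1 lower transporter gene and 1 higher erythroid gene.

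**Figure D3:**
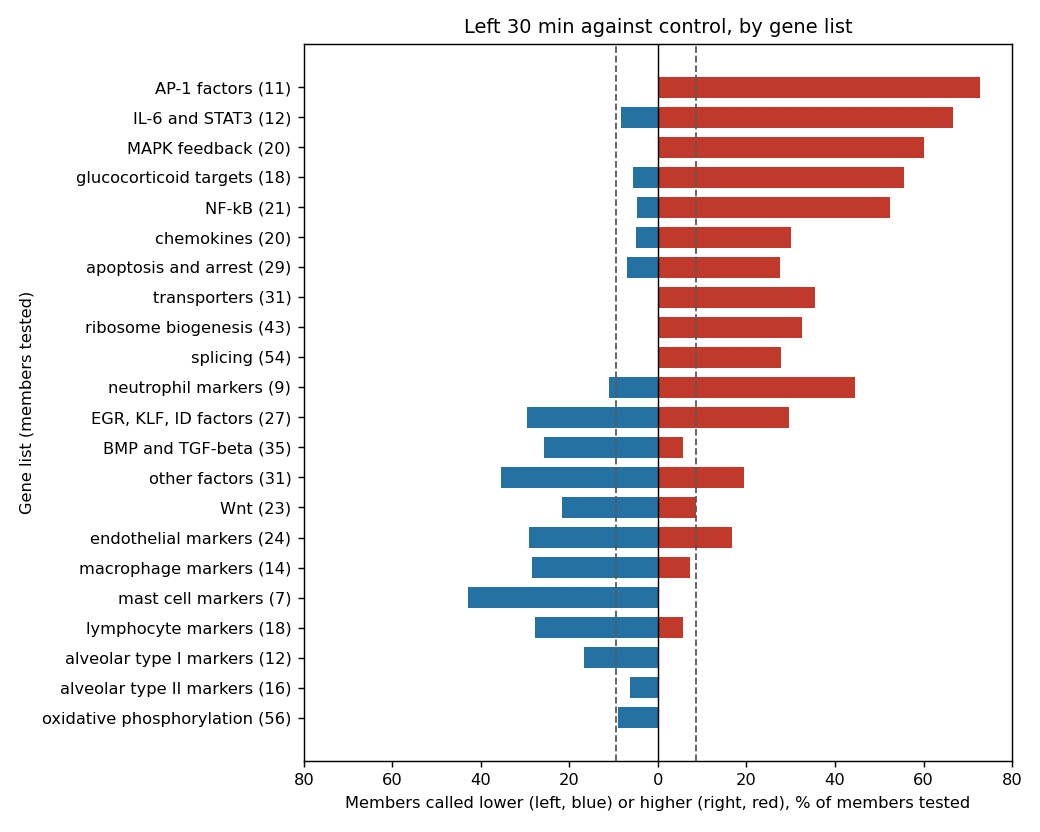
Share of tested members called higher (red, to the right) or lower (blue, to the left) in left 30 min against control, for 22 gene lists with the number of members tested in brackets. The dashed lines mark the shares over all 7728 genes, 8.64% higher and 9.52% lower. AP-1, IL-6 and feedback lists lie far to the right, and the mast cell list to the left. The transcription factor list (11 lower and 6 higher of 31) and the endothelial list (7 lower and 4 higher of 24) pass the dashed lines on both sides. Without left 30 min replicate 1 only 1 endothelial fall was called. The mast cell list includes Kitlg, the ligand of Kit.

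The clamped left lung was next set against the unclamped right lung at the same 30 min, which share the operation. At an adjusted p under 0.05, 1 gene was higher (0.0129% of 7728) and 3 were lower (0.0388%). Without right 30 min replicate 1 the counts were 7 and 8, and without left 30 min replicate 3 or right 30 min replicate 3 limma called 0 lower genes (352 and 247 at an unadjusted p under 0.05). In this pair of groups same-numbered arrays deviated together weakly, with correlations of 0.12, 0.31 and 0.15, against -0.29 to 0.1 for other numbers. The replicate number was therefore also used as a block, and then 1 gene was higher and 1 lower. That block is 1 effect per number shared by all 5 groups, so its p-values are not those of a paired left to right test. Mylip, a ubiquitin ligase that degrades the LDL receptor, read 1378, 1222 and 1473 in left 30 min lungs, against 708, 558 and 594 in right 30 min lungs (log2 difference 1.10 ± 0.14, adjusted p = 0.0032; 0.044 with the block). Control lungs had 685 to 896, median 759, so the left lungs were above both groups. It kept its call without each of the 6 arrays. Mief1, which recruits the mitochondrial fission machinery, read 88.7, 139 and 88.2 in left 30 min lungs, against 246, 204 and 267 in right 30 min lungs (log2 difference -1.03 ± 0.15, adjusted p = 0.015; 0.13 with the block). Rnf144b, a p53-induced ubiquitin ligase, read 531, 471 and 402 on the left, against 809, 897 and 911 on the right (log2 difference -0.87 ± 0.14, adjusted p = 0.015; 0.13 with the block). Id1, a BMP target, read 3107, 2335 and 2616 on the left, against 5293, 4351 and 4879 on the right (log2 difference -0.85 ± 0.13, adjusted p = 0.015; 0.13 with the block). The last 3 genes were lower in the left 30 min lungs than in right 30 min lungs, left 3 h lungs and controls, without overlap. They lost their calls without 3 or 4 of the 6 arrays, among them right 30 min replicate 3, whose actin ratio was 2.93.

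Slc4a1, the chloride and bicarbonate exchanger of red cells, was the gene that fell under the block, with 216, 227 and 195 in left 30 min lungs, against 511, 453 and 633 in right 30 min lungs (log2 difference -1.22, adjusted p = 0.044 with the block and 0.064 without). None of the 6 tested erythroid genes, Slc4a1 included, passed without the block (median -1.2). The members not named here lay above the differences given for the named ones. Alas2 differed by -1.53 (adjusted p = 0.11), Bpgm by -1.34 (0.14) and Ahsp by -1.19 (0.1). Slc4a1 and these 3 were higher on the right, and their part in the left to right difference was not tested. No test passed between the sides for several genes with large rises over control. Il6 read 785, 1417 and 1269 on the left, against 765, 208 and 469.7 on the right, higher in each left lung (log2 difference 1.35 ± 0.61, adjusted p = 0.56). Tfpi2 read 799, 1429 and 1212 on the left, against 778, 210.1 and 278 on the right, also without overlap (log2 difference 1.57 ± 0.58, adjusted p = 0.45). Ccl2 read 1356, 2584 and 1754 on the left, against 1612, 403 and 1113 on the right (log2 difference 1.0 ± 0.51, adjusted p = 0.59), and these groups overlapped. Cxcl1 differed by 0.18 (adjusted p = 0.94), Mt2A by 0.06 (0.98), Areg by 1.13 (0.56) and the faller Bmpr2 by 0.12 (0.94), each with overlapping groups. With 3 arrays a side these tests do not show that the sides were alike. Both comparisons use the same left 30 min arrays.

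**Figure D4:**
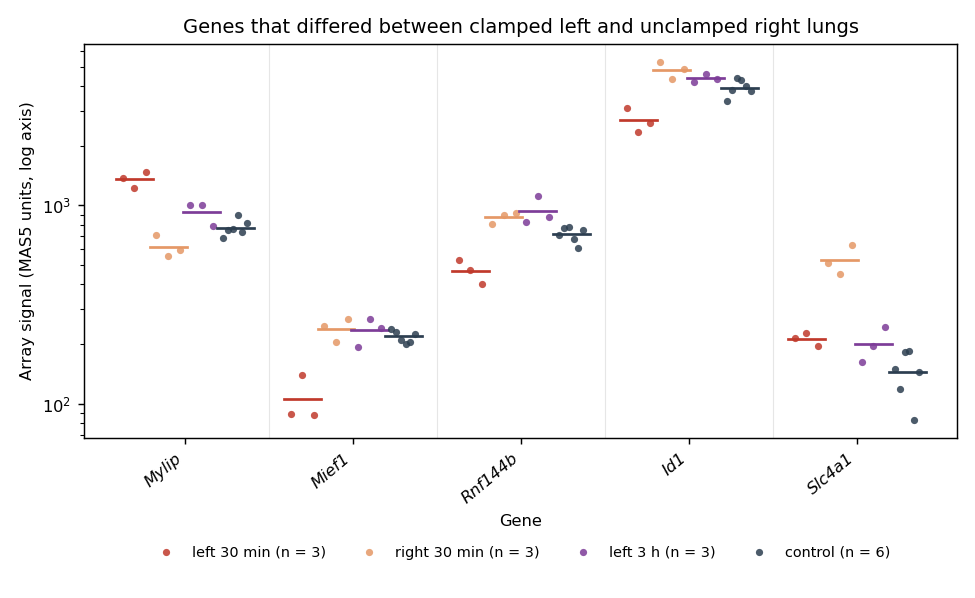
Array signals on a log axis for the 5 genes that differed between left and right lungs at 30 min with or without the replicate block, in left 30 min, right 30 min, left 3 h (n = 3 each) and control lungs (n = 6), with points for arrays and lines for means. Mylip is highest and Mief1, Rnf144b and Id1 are lowest in left 30 min lungs, and Slc4a1 is highest in right 30 min lungs.

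Against the left lungs reperfused for 3 h, the left 30 min lungs had 142 genes higher (1.84% of 7728) and 95 lower (1.23%), with a median difference of 0.06. These counts were unstable: they ranged from 12 to 345 higher and 23 to 199 lower when 1 of the 6 arrays was left out, and rises made up 59.9% of the calls, against 40.3% after median centring and 48.2% after quantile normalization. Without left 30 min replicate 1 there were 13 higher and 23 lower. Of the 20 genes with the largest differences, 10 kept their calls without each array, and most of these were heat shock chaperones, which bind unfolded proteins and are driven by HSF1. Of 25 tested, 14 were lower at 30 min than at 3 h and none was higher. Hspa1a read 2196, 2203 and 1696 at 30 min, against 12648, 11284 and 11863 at 3 h (log2 difference -2.55 ± 0.31, adjusted p = 0.00022). Dnaja1, an HSP40 co-chaperone, read 1737, 1730.3 and 1433 at 30 min, against 8216, 5813 and 6821 at 3 h (log2 difference -2.06 ± 0.18, adjusted p = 6e-06). Hsph1, an HSP110, read 1724, 1023 and 1386 at 30 min, against 8041, 6487 and 6065 at 3 h (log2 difference -2.32 ± 0.26, adjusted p = 0.00011). In each the groups lay far apart, while at 30 min Dnaja1 and Hsph1 overlapped the controls. Hspb1, the small heat shock protein HSP27, read 2454, 3676 and 2492 at 30 min, against 12667, 10933 and 11223 at 3 h (log2 difference -2.03 ± 0.23, adjusted p = 0.00011). The HSP40 gene Dnajb1 differed by -1.88 (adjusted p = 4.2e-05), the mitochondrial chaperonin Hspd1 by -1.73 (0.00018), and the co-chaperone Bag3 by -1.47 (0.0018). Zfand2a, an arsenite-inducible proteasome partner, read 547, 668 and 553 at 30 min, against 3703, 1788 and 1611 at 3 h (log2 difference -1.86 ± 0.26, adjusted p = 0.00075), and at 30 min it was already above the controls of 197 to 300.0, median 235 (log2 difference 1.22 ± 0.22, adjusted p = 0.0012).

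Most of the largest rises at 30 min over 3 h depended on single arrays. Mx2, an interferon-induced dynamin-like GTPase, read 539, 514 and 567.6 at 30 min, against 170.2, 161 and 209 at 3 h (log2 difference 1.47 ± 0.24, adjusted p = 0.0034), and the controls lay at 205 to 374, median 278. Nup210, a nuclear pore glycoprotein, read 517, 457 and 551 at 30 min, against 134, 204 and 262 at 3 h (log2 difference 1.28 ± 0.21, adjusted p = 0.0031). Both kept their calls without each of the 6 arrays. Arhgef40 (log2 difference 2.04 ± 0.45, adjusted p = 0.026), Skic2 (log2 difference 1.77 ± 0.45, adjusted p = 0.042), Armcx4 (log2 difference 1.76 ± 0.38, adjusted p = 0.024), Dmtn (log2 difference 1.67 ± 0.30, adjusted p = 0.0067), Mn1 (log2 difference 1.36 ± 0.32, adjusted p = 0.031), Neb (log2 difference 1.27 ± 0.33, adjusted p = 0.043), Lrrn3 (log2 difference 1.25 ± 0.25, adjusted p = 0.014) and Tnrc18 (log2 difference 1.25 ± 0.24, adjusted p = 0.013) were called but lost the call without 1 or more arrays, left 3 h replicate 1 among them in every case but Neb. The lower genes Fgl2, a prothrombinase of immune cells (log2 difference -1.52 ± 0.41, adjusted p = 0.049), and the leukotriene B4 receptor Ltb4r (log2 difference -1.39 ± 0.34, adjusted p = 0.035) were lost in the same way. Of the 27 tested EGR, KLF, IER, MYC and ID factors, none was higher at 30 min than at 3 h and 2 were lower. These were Id1 (log2 difference -0.71 ± 0.13, adjusted p = 0.0096), which kept its call without each array, and Id3 (log2 difference -0.90 ± 0.22, adjusted p = 0.035), whose call was lost without 4 of the 6 arrays. Egr1 read 9358, 8253 and 7698 at 30 min, against 5098, 3268 and 6421 at 3 h, higher in each 30 min lung, but did not pass (log2 difference 0.82 ± 0.73, adjusted p = 0.54). Fos read 4518, 4110.4 and 3649 at 30 min, against 3483, 2671 and 3740.4 at 3 h (log2 difference 0.32 ± 0.88, adjusted p = 0.87), with overlap, and the same was true of Il6, at 785, 1417 and 1269 at 30 min, against 3701, 626 and 699 at 3 h (log2 difference -0.07 ± 0.61, adjusted p = 0.96). P4ha1, a collagen prolyl hydroxylase and HIF-1 target, was lower at 30 min, 609.5, 489 and 632, against 1650.1, 1297 and 1328 at 3 h (log2 difference -1.27 ± 0.14, adjusted p = 0.00011), and it also lay below the controls of 714 to 979.6, median 781 (log2 difference -0.47 ± 0.13, adjusted p = 0.014; 0.1 without left 30 min replicate 2).

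**Figure D5:**
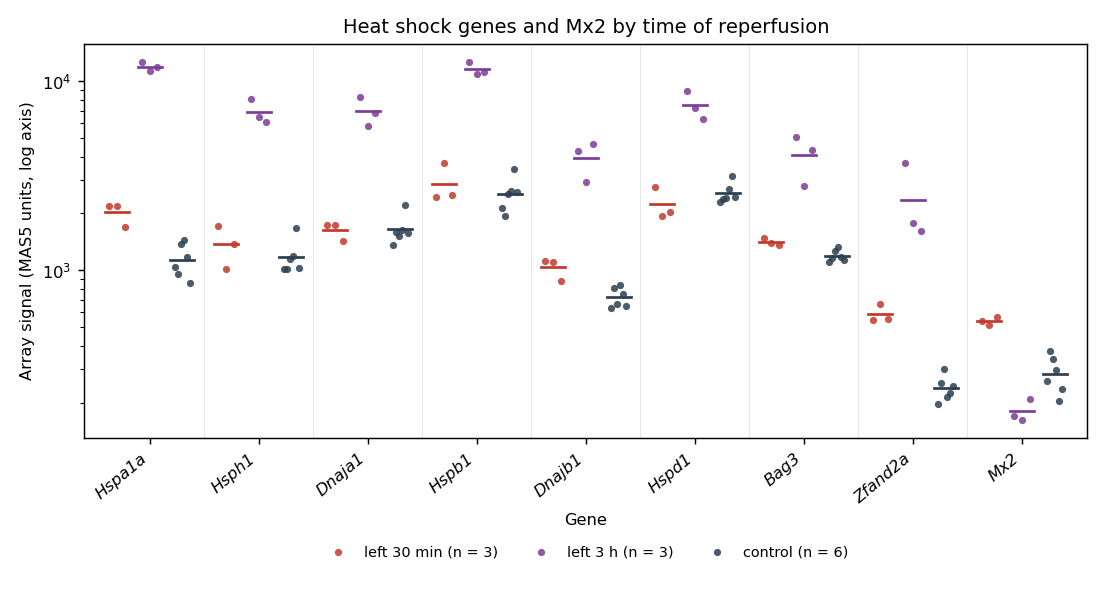
Array signals on a log axis for 8 heat shock genes and Mx2 in left 30 min (n = 3), left 3 h (n = 3) and control lungs (n = 6), with points for arrays and lines for means. The left 30 min points of the 8 genes lie below all left 3 h points, overlap the controls for Hsph1, Dnaja1, Hspb1 and Hspd1, and lie above them for Hspa1a, Dnajb1, Bag3 and Zfand2a. Mx2 runs the other way, at 514 to 567.6 in left 30 min lungs, against 161 to 209 in left 3 h lungs.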

How the data were processed

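Values are the deposited MAS5 signal intensities of the series' 18 arrays (Affymetrix rat 230A, whole lung), 1 per array and 15923 probe sets, made by the authors with MAS5, per the submitters' processing notes, and already scaled. MAS5 gives no read depth, so the number of arrays limits precision. Of the probe sets, 57 manufacturer's controls were left out, and those above 173.6, the 40th percentile of all signals, in at least 3 of 18 arrays were kept (10533). Groups came from the sample titles. The log2 of signal + 25 was fitted with limma 3.58.1 in R 4.3.3 (lmFit and eBayes) with a mean for each of 5 groups over all 18 arrays, and p-values were adjusted by Benjamini-Hochberg over all 10533 probe sets in each of the 3 comparisons, with calls at 0.05. A gene is represented by its probe set of highest mean signal. GEO's platform annotation gave 1 symbol to 12783 probe sets, several to 312 and none to 2771. The fit was tested on simulated data.

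Genes named include the 30 largest called rises and 30 largest called falls against control. Each of these kept its call without each array and did not overlap the controls. The 10 largest called each way against left 3 h lungs, also without overlap, are named too, with every call against right 30 min lungs. Members of gene lists were named by role or smallest adjusted p. For genes picked by size of change, lack of overlap follows from this choice. One gene that the rule names is not reported here. The members and lists were chosen with earlier results of these data known. Measures of whole arrays were set against controls with an exact permutation test. In left against right at 30 min, the deviations of same-numbered arrays from their group means correlated at 0.12, 0.31 and 0.15, against -0.29 to 0.1 between other numbers, so the replicate number was also used as a block there. In the other comparisons the numbers did not pair the arrays. Alternatives were pseudocounts of 5 and 100, no filter, median centring, quantile normalization, the actin ratio as a covariate, the groups compared alone, a trended robust prior, the mean of a gene's probe sets, the replicate block, and leaving out arrays. Promoters are RefSeq's (GRCr8), matched by symbol. Figures were drawn with matplotlib 3.10.9 in Python 3.11.15.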

Additional observations from a re-analysis of the deposited data

Results flagged for a closer look

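Among 255 genes named in the text, the control group held an array far from the other 5 for 19, and chance gives such a flag in about 1 in 20 groups. Control replicate 5 stood apart for Ccl20 (signal 134.8), Cd4 (244.3), Cdh3 (275.7), Cxcl10 (63.95), Cxcl12 (1670), Dnaja1 (2222), Gtf3c5 (74.12) and Hsph1 (1677). Control replicate 2 did so for Lilrb4 (560.9), S100a8 (695.7), S100a9 (2342) and Arid4a (391.6). Control replicate 3 did so for Selp (104.6), Tgfb2 (594.6) and Arhgef40 (106), control replicate 1 for Abca3 (2683) and Tfpi2 (82.01), control replicate 4 for Nr3c1 (1124) and control replicate 6 for Fkbp5 (507.1). In the marker lists, the mean log2 signal of lymphocyte genes was 8.202 in control replicate 5, and that of mast cell genes was 8.555 in control replicate 2.

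The clamped left lung at 30 min differed from the right lung at 30 min in limma's test for 4 genes, with log2 differences of 1.10 for Mylip, -1.03 for Mief1, -0.87 for Rnf144b and -0.85 for Id1. Against left lungs at 3 h, the largest tested log2 differences were 2.04 for Arhgef40, 1.77 for Skic2, 1.76 for Armcx4, 1.67 for Dmtn, 1.47 for Mx2, 1.36 for Mn1, 1.28 for Nup210, 1.27 for Neb, and 1.25 for both Lrrn3 and Tnrc18. On the lower side they were -2.55 for Hspa1a, -2.32 for Hsph1, -2.06 for Dnaja1, -2.03 for Hspb1, -1.88 for Dnajb1, -1.86 for Zfand2a, -1.73 for Hspd1, -1.52 for Fgl2, -1.47 for Bag3 and -1.39 for Ltb4r.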

How the results depend on the processing

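Of 255 genes named against control, 255 kept direction and call with a trended robust prior, 254 with a pseudocount of 5, 253 with 100, 250 after quantile normalization, 247 after median centring or with the mean of all probe sets, 245 without a filter, 217 with the actin covariate, 206 with the replicate block and 168 without arrays of actin ratio above 2, which leaves 1 left 30 min array, replicate 2, assumed to vary like the other groups; none of these 255 reversed. Genes higher against control numbered 668 by the fit as reported, 420 with the actin ratio as a covariate, 326 with the replicate block and 233 without all arrays of actin ratio above 2, and 463 to 608 without 1 array. Genes lower numbered 736, against 395, 288 and 200 under the same settings, 431 after median centring, 1146 with both groups fitted alone, and 416 to 675 without 1 array. Against right 30 min lungs, 1 gene was higher, 2 with a pseudocount of 100, and limma called 0 with both groups alone or without arrays of actin ratio above 2 (245 and 177 at an unadjusted p under 0.05; 1 to 7 called without 1 array). Lower were 3 genes, 8 with the actin covariate, 5 with a pseudocount of 100, 1 with the block, and 0 with both groups alone or without those arrays (221 and 189 unadjusted; 0 to 8 without 1 array). Against left 3 h lungs, 142 genes were higher, 9 with the actin covariate, 85 median centred, 60 without a filter, 81 quantile normalized, 17 with the block, 7 with both groups alone, 5 without those arrays and 12 to 345 without 1 array. Lower were 95, against 17 with the covariate, 55 without a filter, 23 with the block, 9 alone, 10 without those arrays and 23 to 199 without 1 array. Same-numbered arrays correlated at -0.17 to 0.02 with controls and at -0.16 to 0.28 with left 3 h arrays, so there the block only shares a number. With 3 arrays a group and MAS5's noisy low signals, small changes of dim genes were not detectable. Where leaving out arrays lowers a count, fewer samples enter the test; for the other changes the cause was not tested.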
